A study of Rattus norvegicus with 8 samples.

Results

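Etv1, Lxn, Dkk3, Dcx and Ndrg4 are 5 genes grouped here as layer and region markers (Etv1, Lxn, Dkk3) and neuronal maturation genes (Dcx, Ndrg4). The grouping itself was not tested. The 5 genes are described in the medial prefrontal cortex (mPFC) of adult rats after fluoxetine in early postnatal life. They were taken by gene name from the authors' deposited tables of changed genes, which hold 450 of the 15207 probes (short oligonucleotides designed to capture a transcript) in the value table, and each gene had 1 listed probe, so the 5 genes are 5 of 15207 probes. The PNFLX group was given 10 mg/kg fluoxetine, an antidepressant that blocks serotonin reuptake, from postnatal day 2 to 21. The CONTROL group was given the vehicle, a 5% sucrose solution, over the same days. Whole mPFC was collected from rats aged 6 months in both groups, and each group had 4 one-colour Agilent arrays, named here by the numbers in their titles. The labels state no strain, sex or litter and do not say whether each array is a different animal, so the spread given here is that between arrays.

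Layer and region markers label subsets of cortical neurons. Etv1, also called Er81, is an ETS transcription factor known as a marker of layer 5 pyramidal neurons, and Lxn encodes latexin, an inhibitor of carboxypeptidases that marks neurons of the lateral cortex and claustrum in rodents. Dkk3 encodes a secreted glycoprotein of the Dickkopf family, whose other members inhibit Wnt signalling at the cell surface. Dcx encodes doublecortin, a microtubule-associated protein of migrating and immature neurons, and Ndrg4 encodes a cytoplasmic protein of the N-myc downstream-regulated family that is abundant in brain and heart. In the adult cortex a transcript of any of these can change through the cells that carry it or through its amount per cell, and in whole tissue fewer cells of a type and less RNA per cell cannot be told apart.

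The authors placed these 5 probes in their tables on the same PNFLX and CONTROL arrays that are described here. Their criteria were a PNFLX mean at least 0.4 (log2) from the control median and an unadjusted p of at most 0.05. The values below are therefore a description and carry no test. Over all 15207 probes, 2.96% met these criteria, 1.48% as higher and 1.48% as lower in PNFLX. Of the 5 genes, Lxn, Dcx and Ndrg4 were listed as higher and Etv1 and Dkk3 as lower. The smallest listed size was 0.41 (log2) and the largest size that just missed the limit, among probes with such a p, was 0.40. The 5 genes lay well inside, with Dcx the nearest at 1.53 from the control median. In limma over all probes, 0.118% passed an adjusted p of 0.05, and Etv1, Lxn and Ndrg4 were among them while Dkk3 and Dcx were not. Nothing is read from that count, because the choice of the genes used this contrast. Without 1 array at a time, 0 of the 5 passed when CONTROL 2, CONTROL 3 or PNFLX 4 was left out, 1 without PNFLX 1 and 2 or 3 in the other fits. Dkk3 was among them only without PNFLX 3. With quantile normalization, equal 75th percentiles or no moderation of the variance Etv1 alone of the 5 passed, and with equal medians or without the 25% least variable probes Etv1 and Lxn did.

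2 features of the arrays bear on the values. CONTROL 1 and PNFLX 2 had the widest spread of log2 values over all probes, with an SD of 1.72 in PNFLX 2 and 2.01 in CONTROL 1, against 0.95 to 1.15 in the other PNFLX arrays and 0.54 to 0.70 in the other CONTROL arrays. Their deviations from their group means correlated at 0.85 across the 15207 probes, which are not independent. On PNFLX 1, 57 listed probes shared 1 lowest signal of 2.97, while each other array had a single probe at its lowest listed signal. The free-text descriptions of CONTROL 2, CONTROL 3 and CONTROL 4 mention fluoxetine, whereas their titles and source names call them control, and the titles were followed here. Most cell type markers have no named probe in the sources used here, so the labelled tissue could not be checked against them.

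For 4 of the 5 genes RefSeq gives sequence upstream of an annotated start (GRCr8). 3 windows of 250 bases are shown, those of Etv1, Lxn and Dcx, which each had a single annotated start. They were searched on both strands for the E-box spelled CAGCTG, the GC box spelled GGGCGG, the ETS core spelled CCGGAA, the cAMP response element spelled TGACGTCA and the TATA box spelled TATAAA, and capitals mark each match, which can overlap or adjoin another. These windows are chr6:61317179-61317428 on the plus strand for Etv1, chr2:154043474-154043723 on the minus strand for Lxn and chrX:112304162-112304411 on the minus strand for Dcx.
Etv1: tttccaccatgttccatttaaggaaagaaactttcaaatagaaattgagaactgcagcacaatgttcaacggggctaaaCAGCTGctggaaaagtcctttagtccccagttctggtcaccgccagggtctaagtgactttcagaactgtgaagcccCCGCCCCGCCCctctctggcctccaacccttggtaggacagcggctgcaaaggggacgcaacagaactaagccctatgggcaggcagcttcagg
Lxn: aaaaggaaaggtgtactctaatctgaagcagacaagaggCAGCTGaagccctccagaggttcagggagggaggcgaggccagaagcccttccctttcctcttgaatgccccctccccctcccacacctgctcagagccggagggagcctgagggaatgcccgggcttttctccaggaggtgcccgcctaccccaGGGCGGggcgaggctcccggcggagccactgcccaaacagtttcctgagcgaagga
Dcx: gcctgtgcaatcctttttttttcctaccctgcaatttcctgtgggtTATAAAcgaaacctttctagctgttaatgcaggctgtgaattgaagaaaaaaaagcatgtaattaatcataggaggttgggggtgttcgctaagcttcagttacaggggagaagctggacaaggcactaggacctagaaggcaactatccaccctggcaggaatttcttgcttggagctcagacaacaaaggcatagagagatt
The Etv1 and Lxn windows each held 1 E-box, and the GC box occurred 2 times in the Etv1 window, on the reverse strand as CCGCCC, and 1 time in the Lxn window. The Dcx window held 1 TATAAA and neither of these. Among 33469 windows of the same length, 11.97% held the E-box, 30.5% the GC box, 12.6% the ETS core, 1.59% the cAMP response element and 12.9% the TATA box. GC content was 52.4% for Etv1, 62.8% for Lxn and 44.0% for Dcx, against a median of 51.2% over all windows. Ndrg4, also higher in PNFLX, had 3 annotated starts, and its windows are not shown. In 1 of them the GC box occurred 3 times, at a GC content of 71.2%. Its other windows held none of the motifs. A match is a description of these letters and no evidence of binding, and neither the ETS core nor the cAMP response element occurred in the 3 windows shown.

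The layer 5 marker Etv1 was near the lowest signals of the arrays in PNFLX and clearly above them in CONTROL. Its background-subtracted signal, Agilent's processed signal as the authors deposited it, was 2.97, 11.97, 3.85 and 3.50 on PNFLX 1 to 4, against 250.4, 164, 128 and 69.7 on CONTROL 1 to 4. The groups did not overlap, and the highest PNFLX signal, on PNFLX 2, stood well below the lowest CONTROL signal, on CONTROL 4. On PNFLX 1 the Etv1 probe was 1 of the 57 listed probes at the shared lowest signal. On PNFLX 2, 3 and 4 it stood 1.32, 3.37 and 2.60 times above the lowest listed signal of the array, against 16.8 to 69.0 times on the CONTROL arrays. The PNFLX values of Etv1 are thus close to the bottom of the scale, and the size of its difference depends on how dim signals are treated.

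On the deposited log2 scale, where 0 is the middle of a probe's 4 CONTROL arrays, Etv1 stood at -5.45, -4.18, -5.40 and -5.50 on PNFLX 1 to 4. The CONTROL arrays stood at 0.45, 0.18, -0.18 and -0.61. PNFLX 2 was set apart from 3 arrays that lay close together. The mean was -5.13 ± 0.64 in PNFLX and -0.04 ± 0.46 in CONTROL (log2, SD, n = 4 each), a difference of -5.09 ± 0.41 (log2, SE from the limma fit). Only 5 of the 15207 probes had a more negative difference. With 16 added to each signal before the log2, the difference was -3.08, and with 50 added it was -2.00, so it was 0.605 and 0.393 of its size with none added.

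**Figure D1:**
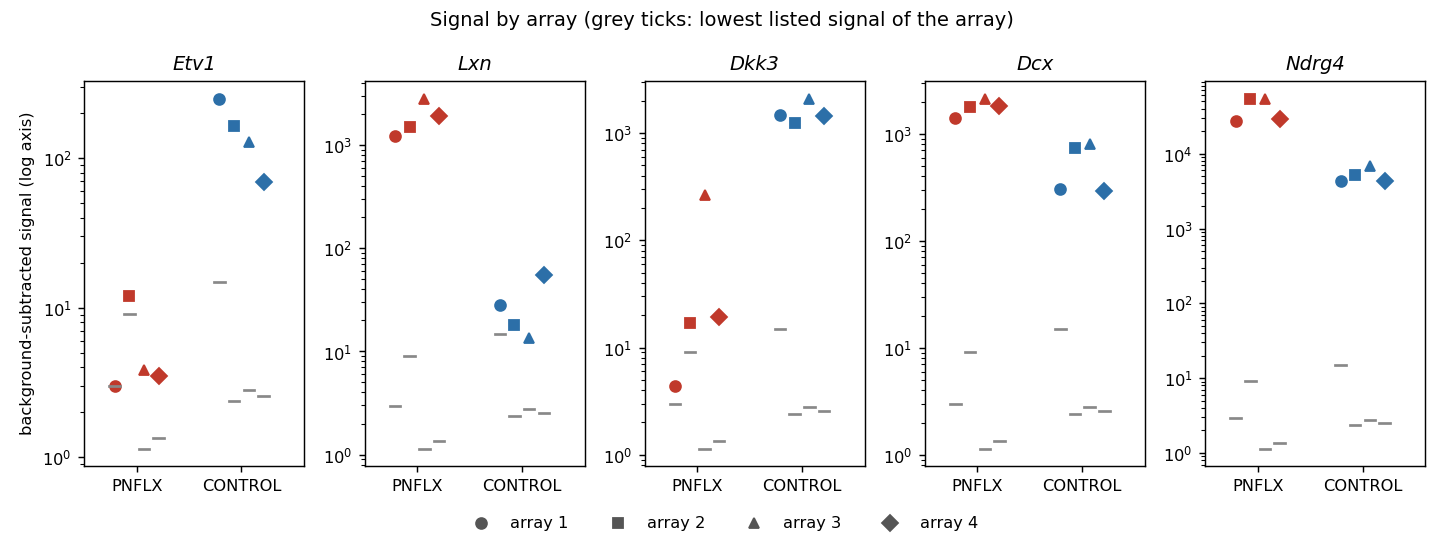
Background-subtracted signal (log axis) of the 5 genes on each PNFLX and CONTROL array, with a grey tick at the lowest listed signal of that array. Etv1 in PNFLX lies near the ticks (2.97 to 11.97), and Ndrg4 is far above them in both groups. Lxn is dim in CONTROL (13.4 to 54.8), from 1.89 times its tick on CONTROL 1 to 21.5 times on CONTROL 4.

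Lxn, the marker of lateral cortical and claustral neurons, showed the opposite pattern, dim in CONTROL and bright in PNFLX. Its signal was 1223, 1508, 2839.7 and 1940.3 on PNFLX 1 to 4, against 28.0, 17.96, 13.4 and 54.8 on CONTROL 1 to 4. Every PNFLX array was far above every CONTROL array, and CONTROL 4 was the highest of its group. The PNFLX median of 1724 was 74.95 times the CONTROL median of 23.0. On the log2 scale Lxn stood at 6.09, 5.66, 6.99 and 6.48 on PNFLX 1 to 4 and at 0.15, -0.15, -0.59 and 1.90 on CONTROL 1 to 4. The spread was wider in CONTROL, where CONTROL 4 drew the mean up to 0.33 ± 1.09, while the PNFLX mean was 6.30 ± 0.57 (log2, SD, n = 4 each).

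The difference of Lxn was 5.97 ± 0.58 (log2, SE from the limma fit), and 3 of 15207 probes had a more positive one. Within single arrays the Lxn value was exceeded by 8 probes on PNFLX 1, 146 on PNFLX 2, 2 on PNFLX 3 and 2 on PNFLX 4. On CONTROL 4 it was exceeded by 62 probes, so Lxn was also among the highest values of that CONTROL array, whereas 8964, 8122 and 13555 probes exceeded it on CONTROL 1, 2 and 3. Lxn was thus below the middle of the probe ranking on 3 of the 4 CONTROL arrays. These ranks are of values relative to each probe's own control median, so they do not rank abundance. With 50 added to each signal the difference was 4.37, and with quantile normalization it was 4.52.

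Dkk3, the secreted Dickkopf family member, was bright in all CONTROL arrays and dim in 3 of the 4 PNFLX arrays. Its signal was 4.39, 16.8, 262 and 19.2 on PNFLX 1 to 4, against 1457, 1233, 2097 and 1437 on CONTROL 1 to 4. The groups did not overlap. PNFLX 3 kept a signal clearly above the lowest listed signals of its array, whereas PNFLX 1, PNFLX 2 and PNFLX 4 were dim. The signal on PNFLX 1 was close to the shared lowest signal of that array, at 1.48 times it. On PNFLX 2 it was 1.85 times the lowest listed signal, so the distance of either value from the others has no firm size.

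The log2 values of Dkk3 were -8.32, -7.11, -2.73 and -6.46 on PNFLX 1 to 4 and -0.43, -0.33, 0.43 and 0.33 on CONTROL 1 to 4. The mean was -6.15 ± 2.41 in PNFLX and 0.00 ± 0.44 in CONTROL (log2, SD, n = 4 each). The difference was -6.15 ± 1.10 (log2, SE from the limma fit), with 1 of 15207 probes more negative. Its SE was the largest of the 5 genes, and without PNFLX 3 the difference was -7.30. Within arrays, 7, 4, 408 and 3 probes had a lower value than Dkk3 on PNFLX 1 to 4. With 50 added to each signal the difference was -4.27.

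**Figure D2:**
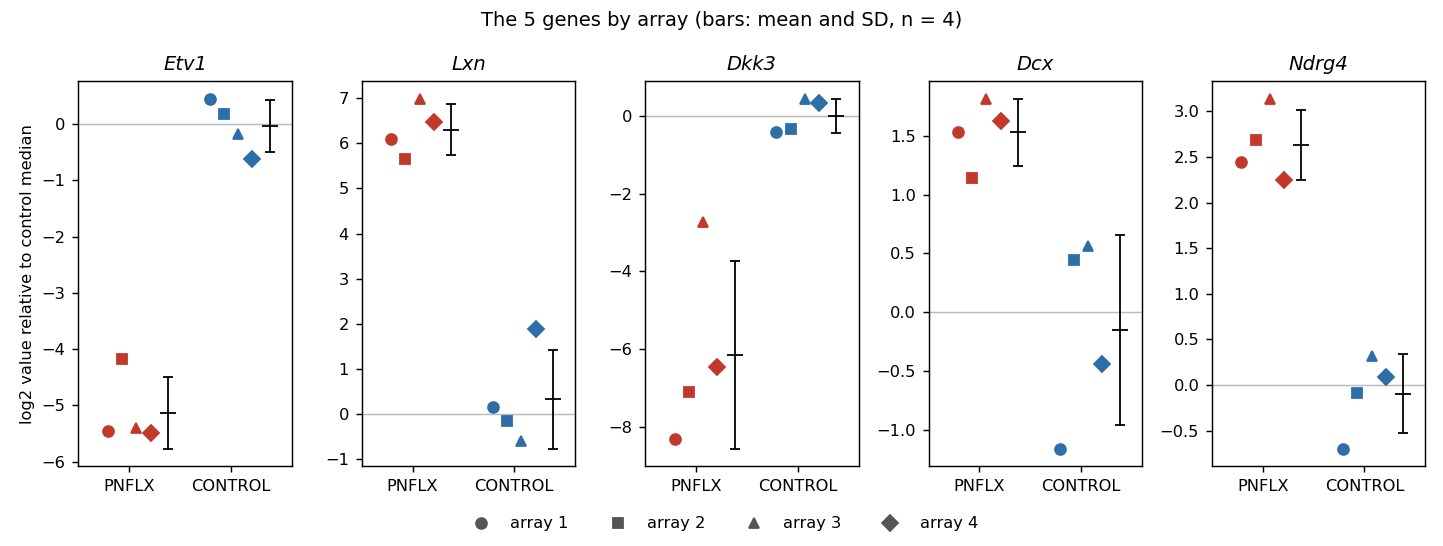
Log2 value relative to the control median for the 5 genes on each PNFLX and CONTROL array, with the group mean and SD (n = 4). PNFLX 2 is nearest to 0 among the PNFLX arrays for Etv1 (-4.18), Lxn (5.66) and Dcx (1.14), and PNFLX 3 is nearest for Dkk3 (-2.73).

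The maturation genes were measured at signals well above the lowest of the arrays in both groups. Their differences on the deposited log2 values were smaller than those of the layer and region markers, though with 50 added to each signal Ndrg4 (2.71) was larger in size than Etv1 (-2.00). Dcx, the doublecortin of immature neurons, had signals of 1418, 1795, 2141 and 1825 on PNFLX 1 to 4, against 308, 738, 806 and 295 on CONTROL 1 to 4. All PNFLX arrays were above all CONTROL arrays, and the CONTROL arrays formed a low pair (1 and 4) and a higher pair (2 and 3). The PNFLX median of 1810.1 was 3.46 times the CONTROL median of 523. On the log2 scale Dcx stood at 1.53, 1.14, 1.81 and 1.62 on PNFLX 1 to 4 and at -1.16, 0.44, 0.56 and -0.44 on CONTROL 1 to 4.

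The groups were separated by 0.58 (log2) for Dcx, the narrowest gap of the 5 genes, between PNFLX 2 and CONTROL 3. The mean was 1.53 ± 0.28 in PNFLX and -0.15 ± 0.81 in CONTROL (log2, SD, n = 4 each), and the difference was 1.68 ± 0.43 (log2, SE from the limma fit). CONTROL was the more variable group here. Of the 15207 probes, 138 had a more positive difference than Dcx. By size in either direction Dcx ranked at number 508, against 124 for Ndrg4. Without CONTROL 1 the difference was 1.34, and without CONTROL 1 and PNFLX 2 it was 1.47. On PNFLX 2, 6099 probes had a higher value than Dcx, against 210 to 486 on the other PNFLX arrays, so the value of Dcx on PNFLX 2 was ordinary for that array. With quantile normalization or with 75th percentiles set equal, Dcx no longer met the authors' criteria, though its difference was 1.64 and 1.72.

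Ndrg4, the brain-rich member of its family, was bright in both groups and brighter in PNFLX. Its signal was 27209.8, 53354, 54612 and 28734 on PNFLX 1 to 4, against 4305, 5201, 6939.95 and 4331 on CONTROL 1 to 4. The lowest PNFLX signal was well above the highest CONTROL signal. PNFLX 2 and PNFLX 3 were about alike and higher than PNFLX 1 and PNFLX 4. The PNFLX median of 41044 was 8.61 times the CONTROL median of 4766.

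In log2 values Ndrg4 stood at 2.45, 2.69, 3.14 and 2.25 on PNFLX 1 to 4 and at -0.70, -0.09, 0.32 and 0.09 on CONTROL 1 to 4. The mean was 2.63 ± 0.38 in PNFLX and -0.09 ± 0.44 in CONTROL (log2, SD, n = 4 each). The difference was 2.73 ± 0.33 (log2, SE from the limma fit), and 34 of 15207 probes had a more positive one. Added offsets hardly moved it, with 2.72 after adding 16 and 2.71 after adding 50. With quantile normalization it was 2.35. On PNFLX 2, 2775 probes had a higher value than Ndrg4, against 46 to 206 on the other PNFLX arrays.

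**Figure D3:**
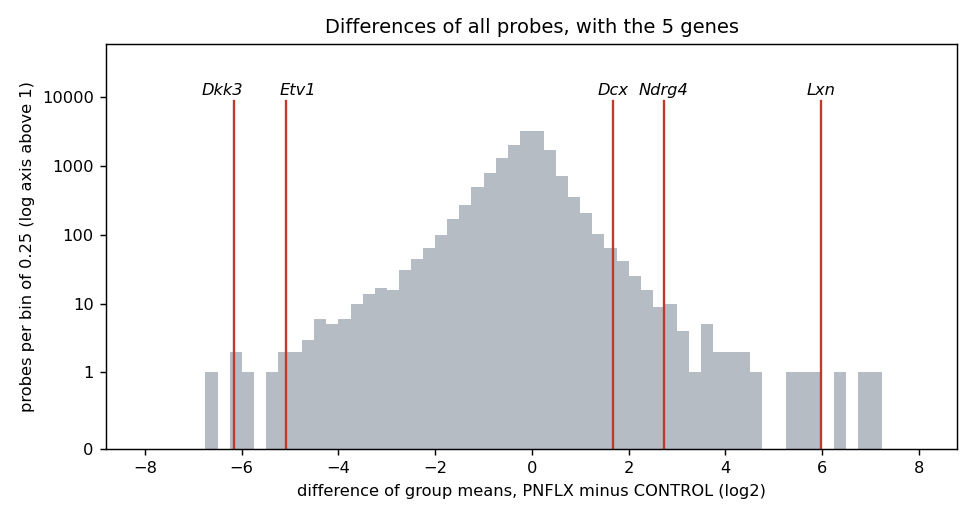
Number of probes by difference of group means, PNFLX minus CONTROL (log2, bins of 0.25, count axis logarithmic above 1), over all 15207 probes. Red lines mark Dkk3 (-6.15) and Etv1 (-5.09) in the lower tail, Lxn (5.97) in the upper tail, and Dcx (1.68) and Ndrg4 (2.73) nearer the bulk.

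Across the 5 genes the group values did not overlap, in either direction, and over all probes 2.32% had groups that did not overlap, 1.18% with PNFLX higher and 1.14% with PNFLX lower. The genes were chosen on these values, and nothing is read from the count. The gap between the groups was 3.56 (log2) for Etv1, 3.76 for Lxn, 2.30 for Dkk3, 0.58 for Dcx and 1.93 for Ndrg4. Among the PNFLX arrays the value nearest to 0 was on PNFLX 2 for 3 of the 5 genes, on PNFLX 3 for Dkk3 and on PNFLX 4 for Ndrg4. The value farthest from 0 was on PNFLX 3 for Lxn, Dcx and Ndrg4, on PNFLX 4 for Etv1 and on PNFLX 1 for Dkk3. Neither the nearest nor the farthest array was the same for all 5 genes. For Etv1 and Dkk3 the farthest value came from a dim signal, 3.50 on PNFLX 4 and 4.39 on PNFLX 1, so that order is not firm.

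PNFLX 2 minus CONTROL 1, the arrays that stood apart and 1 per group, gave -4.63 for Etv1, 5.50 for Lxn, -6.68 for Dkk3, 2.30 for Dcx and 3.39 for Ndrg4 (log2). The other 6 arrays gave -5.25, 6.13, -5.98, 1.47 and 2.51 for these genes in the same order. The sign was the same in both for each gene, as it must be where the groups do not overlap. The size was larger in the single pair for Dkk3, Dcx and Ndrg4 and smaller for Etv1 and Lxn. Whether the departure of these arrays plays a part in the differences was not tested.

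**Figure D4:**
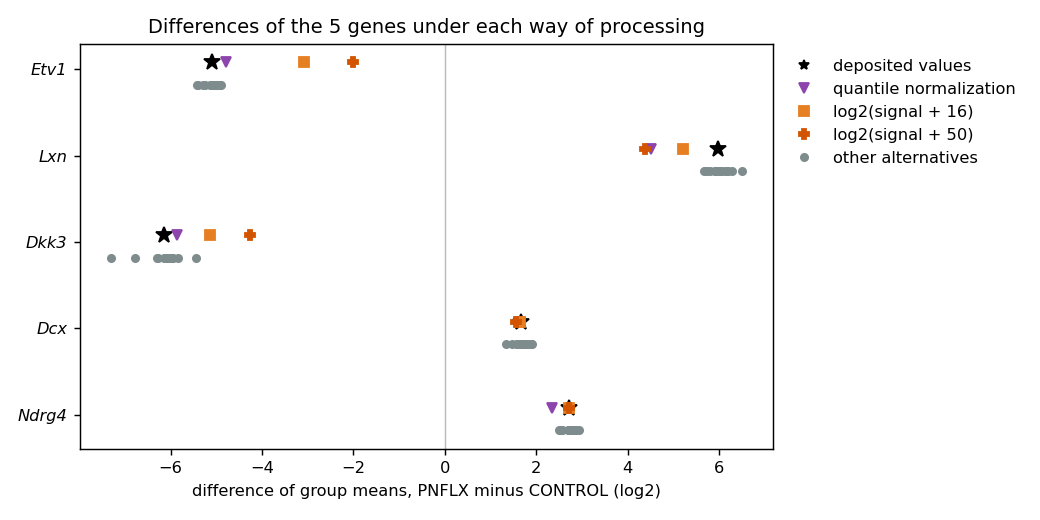
Difference of group means, PNFLX minus CONTROL (log2), for the 5 genes from the deposited values (star) and under each alternative. Etv1 stands at -3.08 and -2.00 with the offsets, against -5.09 as deposited, and Ndrg4 at 2.72 and 2.71, against 2.73.

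The listed genes whose 8 log2 values lay nearest to each of the 5 were found by the mean absolute difference over the 8 arrays, among 432 other listed probes with a RefSeq gene. Lgi1, a secreted synaptic protein, was nearest to Etv1 at 0.52 (log2), followed by Vamp4, a SNARE protein of the Golgi and endosomes, at 0.54. Both were dim in PNFLX, with median signals of 8.06 for Lgi1 and 6.66 for Vamp4, against 202 and 168 in CONTROL. Lxn was nearest to Bri3, brain protein I3, at 0.43, and then to Tm9sf2, a transmembrane protein of endosomes, at 1.01. Bri3 and Tm9sf2 also had dim CONTROL signals, with medians of 22.4 and 9.31, and PNFLX medians of 2496 and 1283. Likeness here therefore includes a shared group difference and dim signals in 1 group.

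Dkk3 was nearest to Gnl2, which encodes a GTPase of the nucleolus, at 0.60, and to the kinase gene Cdk17 at 0.96. Among the PNFLX arrays, PNFLX 3 was nearest to 0 for these genes too, at -4.99 for Gnl2 and -3.93 for Cdk17, as for Dkk3 at -2.73. Cdk17 also stood at -3.95 on CONTROL 1, so its groups overlapped, whereas Dkk3 stood at -0.43 there. The nearest to Dcx were Slc25a46, an outer mitochondrial membrane protein, at 0.23 and Cdc42ep5, an effector of the GTPase CDC42, at 0.27. In both, CONTROL 1 was the lowest array, at -1.50 and -1.06, as in Dcx at -1.16. Ndrg4 was nearest to Necab3, a calcium-binding protein, at 0.25 and to the proteasome subunit gene Psmd2 at 0.36.

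Of related genes, 8 lists with 139 genes were looked up by name: deep and upper cortical layers, immature and mature neurons, ETS factors, Dickkopf and Wnt genes, the NDRG family, and carboxypeptidases with the latexin homologue. Of the 139 genes, 4 (2.88%) were named in the authors' tables, near the 2.96% of all probes that the tables hold, and the probes of the others are not named in the sources used here. These were Crym of the deep layers as lower, and Stmn1 of immature neurons, Ets1 of the ETS factors and Cpd of the carboxypeptidases as higher. The lists of upper layers, mature neurons, Dickkopf and Wnt genes and the NDRG family had 0 named genes. Crym, Stmn1, Ets1 and Cpd were selected by the authors on the same arrays, so their values too are a description. The median difference was -0.07 (log2) over all probes, 1.06 over the probes listed as higher and -1.81 over those listed as lower.

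Crym, a thyroid hormone-binding protein of deep-layer neurons, had signals of 4871, 12483, 21195 and 10909.8 on PNFLX 1 to 4, against 29977, 34441.5, 24620 and 19611 on CONTROL 1 to 4. PNFLX 3 lay above CONTROL 4 in signal, while on the scaled log2 values the groups were apart, from -2.24 to -0.43 in PNFLX and from -0.11 to 0.43 in CONTROL. The difference was -1.49 ± 0.41 (log2, SE from the limma fit). Like Etv1, the other deep-layer gene, Crym was lower in PNFLX, and the other 16 symbols of the deep-layer list have no named probe here.

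Stmn1 encodes stathmin, a microtubule-destabilizing protein that is abundant in immature neurons. Its signal was 25312, 29756, 33167 and 25388 on PNFLX 1 to 4, against 8772, 15500.0, 14979.8 and 10912 on CONTROL 1 to 4. The groups were apart, as for Dcx, and on the log2 values CONTROL 1 was the lowest array for both genes, at -1.10 for Stmn1 and -1.16 for Dcx. CONTROL 1 had the widest spread of all arrays (SD 2.01), and the share of all probes that were lowest there was not counted. The difference of Stmn1 was 1.00 ± 0.35 (log2, SE from the limma fit), and 0.83 without CONTROL 1 and PNFLX 2. Of the list of immature neurons, 27 other genes have no named probe here.

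Ets1, an ETS transcription factor like Etv1, had 2 listed probes and both were higher in PNFLX, opposite to Etv1. The differences were 0.82 ± 0.32 and 0.68 ± 0.32 (log2, SE from the limma fit). In both probes CONTROL 2 lay within the PNFLX range, at 0.85 against 0.57 to 1.29 and at 0.71 against 0.45 to 1.33, so the groups overlapped on that scale, though not in the unscaled signals. Cpd, the membrane carboxypeptidase D, stood at 0.36 to 0.70 in PNFLX and -0.60 to 0.24 in CONTROL, with a difference of 0.55 ± 0.27 (log2, SE from the limma fit). Without CONTROL 1 and PNFLX 2 the value of Cpd was 0.40.

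**Figure D5:**
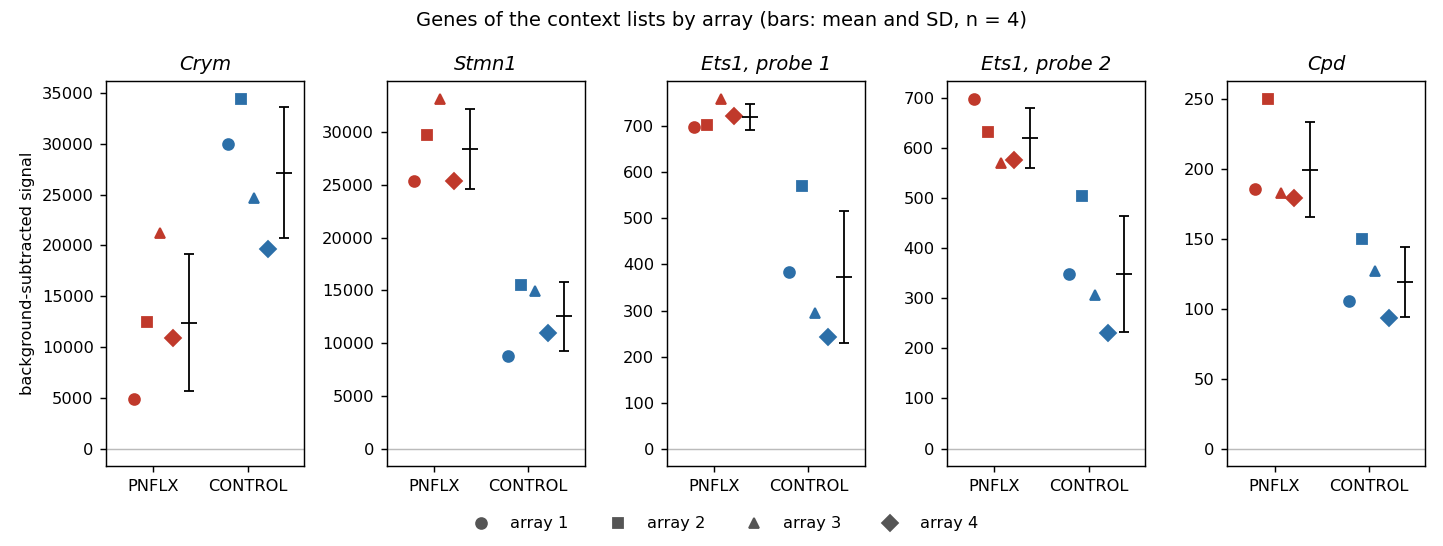
Background-subtracted signal of Crym, Stmn1, the 2 probes of Ets1 and Cpd on each PNFLX and CONTROL array, with the group mean and SD (n = 4). All PNFLX arrays lie above all CONTROL arrays for Stmn1, Ets1 and Cpd in these signals, which are not scaled between arrays, and PNFLX 3 overlaps CONTROL for Crym.

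Among 12 marker lists of other cell types and neighbouring regions with 67 genes, 10 lists had 0 named genes, among them the markers of claustrum and insula, of the olfactory bulb and of excitatory neurons. Of the 67 genes, 4 (5.97%) were named, against 2.96% of all probes, and nothing is read from so few genes. The striatal list had Adcy5 as its single named gene of 8, and its signal was 1410 to 2250.1 in PNFLX, against 708 to 898 in CONTROL. The endothelial and pericyte list had 3 named genes of 7, Rgs5, Cldn5 and Anpep, listed as lower, and their summed signal was 1876 to 2446 in PNFLX, against 2174 to 3359 in CONTROL. Cldn5, the brightest, makes up most of that sum. Over all probes 1.48% were listed as lower and 1.48% as higher, the direction of Adcy5. Singly, Rgs5, a pericyte marker, stood at -3.06 ± 0.77 (log2, SE from the limma fit), with median signals of 33.0 in PNFLX and 182 in CONTROL and groups that did not overlap on the log2 values. Cldn5 of endothelial tight junctions was at -0.57 ± 0.29 and Anpep at -0.66 ± 0.30, and in both the groups overlapped. Adcy5 was listed as higher, like Lxn, Dcx and Ndrg4, and Rgs5, Cldn5 and Anpep as lower, like Etv1 and Dkk3. All were taken from the authors' tables of changed genes, so nothing is read from a shared direction. The lowest listed signal of every array was above 0, so a signal above 0 says nothing about detection. Rgs5 on PNFLX 1, at 5.10, was near the lowest listed signal of that array, 2.97. The part of these 4 marker genes in the differences was not tested.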

How the data were processed

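Whole mPFC RNA of 4 PNFLX and 4 CONTROL samples was labelled with Cy3 and hybridised to custom rat Agilent arrays, per the labels' protocols. The value table deposited by the authors holds log2 values, and the control median is 0 for each of its 15207 probes. The authors' sheets add the background-subtracted signal intensity, per the file headers. They also hold a p-value deposited by the authors, which is not printed here. The sources used here give no scaling method, software or detection flags, so dim probes were kept. Sheet columns were matched to samples through source names (numbered 1, 2, 3, 5 in PNFLX and 1, 2, 4, 5 in CONTROL, while titles run 1 to 4), whose log2 values equalled the value table. Of the 450 listed probes, 433 matched RefSeq (GRCr8) by gene ID or symbol.

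limma 3.58.1 (lmFit, eBayes) in R 4.3.3 was run on all probes, for PNFLX minus CONTROL with no covariate and Benjamini-Hochberg adjustment, and was checked on simulated data. Figures and counts were made in Python 3.11.15. Named were the 5 genes, for each the 2 nearest listed genes, and every list gene found in the sheets. The genes, lists and alternatives were chosen with earlier results of these data known. Alternatives were quantile normalization, equal medians or 75th percentiles, offsets of 16 and 50 on the signal (keeping the authors' array scaling), no scaling between arrays, group medians, a replicate block and leaving out arrays. Precision is limited by having 4 arrays per group.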

Additional observations from a re-analysis of the deposited data

Results flagged for a closer look

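The 5 genes and the 8 named list genes gave 28 groups of 4 arrays, and in 3 of them a single array stood far off by Dixon's ratio of gap to range, which chance meets in about 1 in 20 groups. Etv1 stood at -4.18 on PNFLX 2, against -5.50 to -5.40 on the other PNFLX arrays (log2, ratio 0.923). The lowest listed signal was 9.09 on PNFLX 2, against 1.14 to 2.97 on the other PNFLX arrays. On PNFLX 2 the Etv1 signal was 1.32 times that lowest signal. Cpd stood at 0.70 on PNFLX 1, against 0.36 to 0.40 on the others (ratio 0.890). Stmn1 stood at -1.10 on CONTROL 1, against 0.00 to 0.06 on the others (ratio 0.945). These groups share the same 8 arrays.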

How the results depend on the processing

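The differences of the 5 genes kept their sign under all 17 alternatives, and 80 of the 85 values moved by less than the SD between arrays. The other 5 were Etv1 with offsets of 16 (-3.08) and 50 (-2.00), Lxn with quantile normalization (4.52) and an offset of 50 (4.37), and Dkk3 with an offset of 50 (-4.27). The groups did not overlap for any of the 5 genes, so leaving out arrays or taking group medians could not reverse a sign. The replicate block leaves the differences unchanged by construction, so much of this count was fixed in advance. The SD between arrays was 1.73 (log2) for Dkk3, so its -7.30 without PNFLX 3 and -5.13 with an offset of 16 counted as within it. An offset shrinks differences of dim signals by construction. Setting values to the control median narrows the spread of CONTROL arrays, and quantile normalization removes this too. With single arrays left out the differences ranged from -5.41 to -4.93 for Etv1, 5.67 to 6.50 for Lxn, -7.30 to -5.43 for Dkk3, 1.34 to 1.91 for Dcx and 2.53 to 2.87 for Ndrg4.

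The authors' criteria were met by 4 of the 5 genes with quantile normalization or equal 75th percentiles and by 5 under the other alternatives run. Over all probes limma called 18, and 10 with quantile normalization, 4 with equal 75th percentiles, 40 without CONTROL 1 and PNFLX 2 together, and 2 to 26 with single arrays left out, with 2, 3, 4 and 2 without CONTROL 2, CONTROL 3, CONTROL 4 and PNFLX 4. The cause was not tested. The title numbers as a replicate block gave 0 called probes in limma, and so 0 of the 5 genes (346 at an unadjusted p under 0.05, 12 by a linear model without moderation and without the block) and the same differences for the 5 genes. Deviations of same-numbered arrays correlated at -0.21, -0.67, 0.44 and 0.35 for numbers 1 to 4. The deviations of PNFLX 2 and CONTROL 1 correlated at 0.85, and deviations from a group mean depend on each other. These values therefore cannot decide whether the numbers pair the arrays. Signals that are dim or near the lowest of the arrays limit the size of the differences of Etv1, Lxn and Dkk3.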
